A study of Mus musculus with 6 samples.

Results

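Messenger RNA of the ventricles of 22-month-old mice was compared with that of 15-month-old mice, both fed ad libitum (AL, free access to standard chow). The comparison used 2 of the 6 samples of the study, which asked how caloric restriction (CR) begun at different ages acts on the ageing heart. All animals were male C57BL/6J mice on a 12 h light/dark cycle. They were caged individually while food intake was estimated before the feeding period, and their housing afterwards was not stated separately. The 15-month AL group began its feeding period at 12 months of age and the 22-month AL group at 19 months, and both were fed freely for 3 months. The CR groups of the same ages, whose values are given beside the AL groups, were lowered in steps to 60% of the AL intake. After death blood was withdrawn by cardiac puncture and the hearts were washed. Each array carried the RNA of 1 pool made from equal amounts of ventricular tissue of 6 mice of a group, so each age and diet was measured once and no p-value could be given. The 15-month arrays lay on 1 slide and the 22-month arrays on another, so that age and slide cannot be told apart.

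Genes were taken by a fixed rule: non-control probes had to be well above background on both AL arrays, and levels are log2 signals relative to the 75th percentile of the array, so that 0 is that percentile. Of 39429 probes, 30407 (77.1%) were well above background on the 15-month AL array and 28111 (71.3%) on the 22-month AL array. Probes above background on both gave 22983 genes or transcripts, 15872 of them with a gene symbol. The share above background was 61.6% on the 15-month CR array and 69.5% on the 22-month CR array, and it was 36.0% and 33.9% on the 2 arrays of 6-month mice, which were dimmer and enter here only in 1 alternative filter, probes above background on all 6 arrays. Across 23733 probes the AL arrays of the 2 ages correlated at r = 0.966, against 0.98 for AL with CR at 15 months and 0.981 at 22 months. Each difference is 22 minus 15 months on the log2 scale, with ± the error that the scanner software gives for the spots, which holds nothing of the spread between animals or pools. Levels of a gene on the 4 arrays are given in the order 15-month AL, 15-month CR, 22-month AL, 22-month CR.

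Both AL pools held transcripts that mark cardiomyocytes, the contractile cells of the heart. All but 1 of the 26 listed markers were measured on both AL arrays, with a median difference of -0.27. Myh6, the alpha myosin heavy chain of the adult mouse ventricle, was at 6.50, 6.82, 6.50 and 6.77, a difference of -0.01 ± 0.14 between the AL arrays. The summed linear level of the marker list was 2477 on the 15-month AL array and 2244 on the 22-month AL array, and 3765 and 3130 on the CR arrays of those ages.

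Ventricular tissue holds, beside cardiomyocytes, endothelial cells, fibroblasts, mural cells, nerve sheath cells, macrophages and whatever blood stays in the vessels, and a bulk measurement adds up all of them. Natriuretic peptides and the beta myosin heavy chain are made in larger amounts by loaded or enlarged cardiomyocytes and serve as markers of hypertrophy. Immediate early genes are transcribed within minutes of a stimulus and need no new protein, while clock genes cycle over the day in cardiomyocytes as in most cells.

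Between the AL pools, 1199 genes (5.22% of the 22983) were at least 2-fold higher at 22 months and 953 genes (4.15%) at least 2-fold lower. With another background correction, normexp on the raw signals with an offset of 50 added, these counts were 479 and 339. Of 170 genes named by rule that were past 2-fold, 60 were under 2-fold with normexp and 0 changed sign, and 67 moved by more than 1.5-fold, so the genes described below that were under 2-fold with normexp are named in each paragraph. The median difference of all genes was 0.05 and their SD 0.64, and the 5th and 95th percentiles were -0.93 and 1.01. The CR pools of the same ages, on the same slides but with no array shared, had 1075 genes (5.37% of 20018) at least 2-fold higher at 22 months and 479 genes (2.39%) at least 2-fold lower. Across 19924 genes measured on both diets the age difference on AL correlated with that on CR at r = 0.557 (Spearman rho 0.576), a description across genes, which are not independent replicates. Of the genes at least 2-fold higher on AL, 920 were measured on CR too, where 831 lay above 0 and 423 were also at least 2-fold higher (46.0% of the AL genes and 39.3% of the CR genes). Of those at least 2-fold lower on AL, 873 were measured on CR, where 728 lay below 0 but 118 were at least 2-fold lower (13.5% of the AL genes and 25.3% of the CR genes). Thus the higher genes had a counterpart on CR more often by count than the lower ones, and the difference was not tested.

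**Figure D1:**
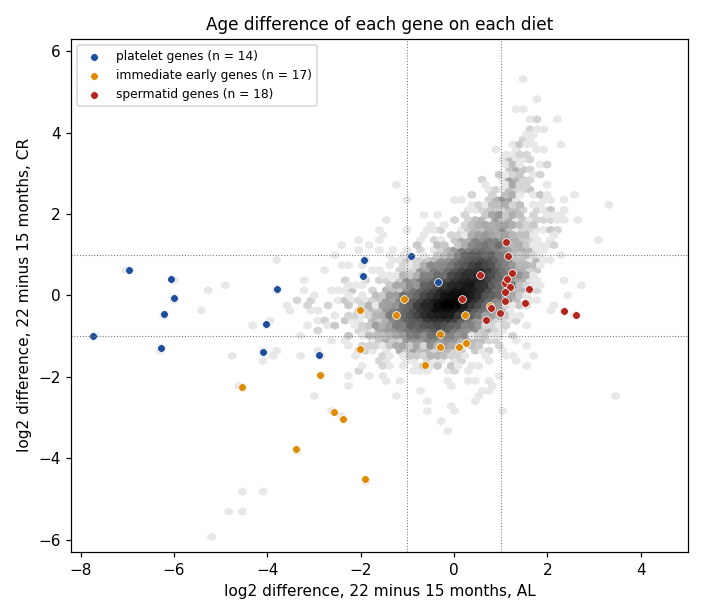
Each hexagon holds genes by their log2 difference between 22 and 15 months on AL (x axis) and on CR (y axis), darker where more genes fall, and dotted lines mark a 2-fold difference. The platelet genes (blue) reach down to -7.74 on AL but not on CR, the immediate early genes (orange) lie low on both diets, and most spermatid genes (red) lie above 0 on AL and around 0 on CR.

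Which array set a difference apart could be read from the other pools. Among 22980 genes, the 15-month AL array was at least 2-fold above each of the other 3 arrays in 224 (0.975%), and the 22-month AL array at least 2-fold above each of the other 3 in 430 (1.87%). Both 22-month arrays lay above both 15-month arrays in 6271 genes (27.3%) and below both in 5409 (23.5%). Of the 953 genes lower at 22 months on AL, 279 were at least 2-fold higher in the 15-month AL pool than in the CR pool of the same age, and 3 were at least 2-fold lower. Of the 1199 genes higher at 22 months on AL, 447 were at least 2-fold higher in the 22-month AL pool than in its CR counterpart and 178 at least 2-fold lower.

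The largest differences were those of platelet genes, and it was the 15-month AL pool that stood out. Of 25 platelet genes on the array, 18 were measured on both AL arrays and 15 of these were at least 2-fold lower at 22 months (all genes 4.15%), with a median of -3.98. The median was -2.89 with normexp, where 14 of the 18 were lower, and -1.94 over the 6 members above background on all 6 arrays. None was higher, and on CR the median of the list was 0.05. In 15 of the 18 the 15-month AL array was at least 2-fold above each of the other 3 arrays (all genes 0.975%). All 25 genes were well above background in the 15-month AL pool, compared with 14, 18 and 19 in the 15-month CR, 22-month AL and 22-month CR pools. Over all probes the shares well above background were 77.1%, 61.6%, 71.3% and 69.5% in these pools, in the same order. The summed linear level of the 18 genes was 240.0 times the 75th percentile in the 15-month AL pool and 19.1, 21.6 and 22.7 times in the other pools, in the same order. In bulk tissue, fewer cells of a type and less RNA per cell cannot be told apart.

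Ppbp, which encodes the platelet chemokine precursor pro-platelet basic protein, had levels of 6.01, -0.69, -1.73 and -1.68. Its difference on AL was -7.74 ± 0.21, a 214-fold lower level at 22 months and the largest of all genes named here. Gp9, a subunit of the receptor for von Willebrand factor, was at 3.84, -3.09, -3.12 and -2.47, or 125-fold lower at 22 months (-6.96 ± 0.24). Plek, pleckstrin, a main kinase substrate of platelets, was at 4.76, -0.19, -1.51 and -1.49 (77.6-fold lower). In each of these genes the 15-month AL pool was far above the other 3 pools.

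P2ry12, the platelet ADP receptor, was 73.7-fold lower at 22 months (-6.20 ± 0.32), and Alox12, the platelet 12-lipoxygenase, was 67.1-fold lower (-6.07 ± 0.21). Pf4, platelet factor 4, was detected at clear levels in every pool, at 5.79, 2.15, 1.99 and 2.31, and was 13.9-fold lower at 22 months. The differences of Gp6, the collagen receptor, Mmrn1, a stored adhesive protein, and Tubb1, the platelet beta-tubulin, were -4.02, -4.10 and -3.94. Itgb3, the beta chain of the fibrinogen receptor, which endothelial cells also make, differed by -2.90. Smallest were the differences of Nrgn (-0.92), Slfn14 (-0.48) and Selp (-0.34). A further 7 platelet genes were well above background in the 15-month AL pool but not in the 22-month AL pool, so that only a bound could be given. These bounds were at least 188-fold for Rgs18, 67.7-fold for Itga2b, 56.8-fold for Gp1ba, 28.5-fold for Gp5, 4.21-fold for Trpc6, 2.25-fold for Gp1bb and 2.24-fold for F2rl2.

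Several other genes among the 15 largest falls showed the same form, that is high in the 15-month AL pool alone. They included Hpse, heparanase (-5.45), Prkar2b, a regulatory subunit of protein kinase A (-4.90), Mpig6b, an inhibitory receptor of megakaryocytes and platelets (-4.43), and Dap (-4.26). Ctla2a and Ctla2b, which encode inhibitors of cysteine proteases, differed by -4.04 and -4.72. Ctla2a was at 7.37, 4.81, 3.33 and 3.16, and Ctla2b at 5.98, 2.67, 1.26 and 1.14, so that the 15-month CR pool also exceeded both 22-month pools.

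Erythroid genes were likewise highest in the 15-month AL pool, but by less. Of 20 measured, 8 were at least 2-fold lower at 22 months (all genes 4.15%) and none was higher, with a median of -0.50 (on CR -0.04), and in 7 (all genes 0.975%) the 15-month AL array was at least 2-fold above all others. Their summed linear level was 804.6 in the 15-month AL pool and 476.3, 346.1 and 457.4 in the other 3. Hba-a1, an alpha-globin gene, was at 7.40, 5.86, 5.06 and 5.67, which made it 5.04-fold lower at 22 months. Alas2, the erythroid enzyme that starts heme synthesis, was at 3.32, 1.77, 1.58 and 1.73 (-1.74), and Bpgm, the red cell bisphosphoglycerate mutase, at 0.21, -1.24, -1.82 and -1.26 (-2.03). Differences of the globin genes ranged from -3.37 for Hbb-bs to -0.57 for Hba-a2, and since these copies are nearly identical in sequence the share of each is uncertain. Slc4a1, the band 3 anion exchanger, differed by -0.03, and Rhd (0.38) and Tspo2 (0.59) lay on the other side of 0. With the genes of the platelet, erythroid, neutrophil, B cell and T cell lists left out, 1198 genes were higher and 925 lower. The part of blood in other differences was not tested.

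**Figure D2:**
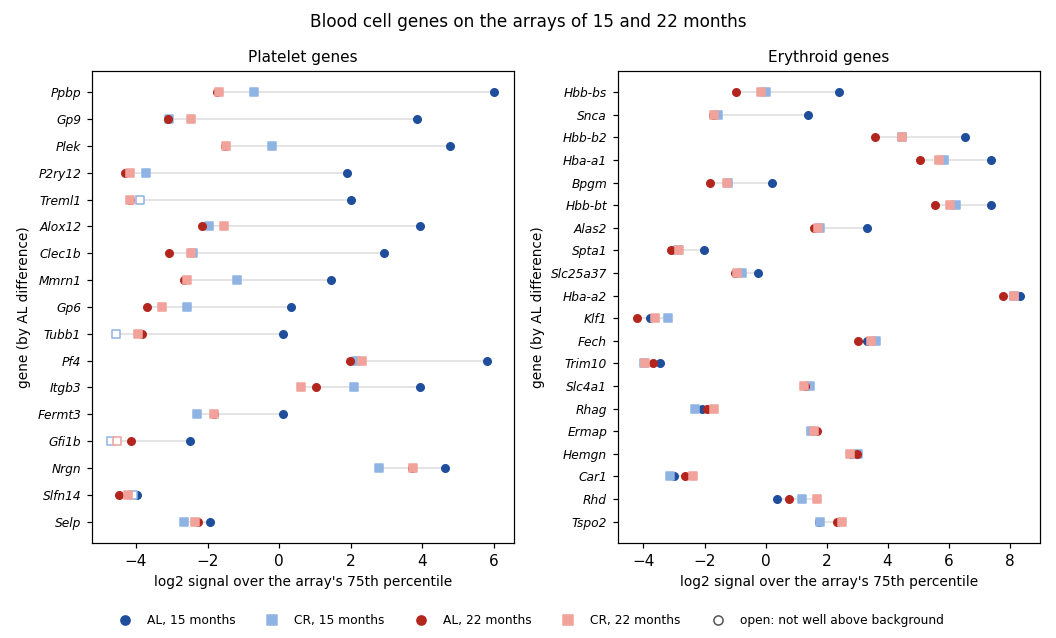
Log2 level relative to the 75th percentile of the array (x axis) of 17 of the 18 measured platelet genes (left) and of the measured erythroid genes (right) on the 4 arrays, with open symbols where the gene was not well above background. The 15-month AL pool (dark blue) stands to the right of the other pools for most platelet genes, at 6.01 for Ppbp against -0.69 or lower, and for the globin genes and Alas2.

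White blood cell genes had medians nearer to 0. Neutrophil genes (15 measured) had a median of -0.06 with 1 gene at least 2-fold higher (all genes 5.22%) and 4 lower (all genes 4.15%), and 5 more were above background in the 15-month AL pool only, Ngp, Ltf, Mmp8, Cxcr2 and Fpr2, with no bound reaching 2-fold. The other lists were T and NK cell genes (15 measured), with a median of 0.17 and 1 higher, B cell and plasma cell genes (11 measured), with a median of 0.34 (-0.11 without the filter on dim probes) and 1 lower, and macrophage genes (19 measured), with a median of -0.17 and 1 lower. S100a8 and S100a9, the calprotectin subunits of neutrophils, were lower at 22 months on AL (-1.43 and -1.02) and higher on CR (1.85 and 1.67). Camp (-1.42) and Retnlg (-1.14), other neutrophil granule or secreted products, were lower, whereas Elane, neutrophil elastase, was higher on AL (1.23) and on CR (1.17). Cd79b, a subunit of the B cell receptor, differed by -1.25, Gzmb, granzyme B, by 1.08, and Mertk, a macrophage receptor for dying cells, by -1.29. Adgre1, which encodes the macrophage antigen F4/80, differed by -0.26. With normexp S100a8, S100a9, Camp, Retnlg, Cd79b, Gzmb and Mertk were under 2-fold.

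At the other end, transcripts of spermatids, the post-meiotic cells of the testis, were highest in the 22-month AL pool. All 24 genes of the list were measured and all 24 differences lay above 0, with 15 at least 2-fold higher at 22 months (all genes 5.22%) and a median of 1.11. Like the other lists, this one was chosen with earlier results of these data known, so its counts describe the members and test nothing. On CR 18 of the genes were measured with a median of -0.01. The 22-month AL array was at least 2-fold above each of the other 3 arrays in 14 of the 24 (all genes 1.87%). Their summed linear level was 21.0, 13.6, 48.1 and 14.4 on the 4 arrays, so that the 15-month AL pool was the next highest.

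Prm1, protamine 1, which replaces histones in sperm chromatin, was at -0.49, -2.34, 2.12 and -2.81, a 6.13-fold higher level at 22 months on AL (2.62 ± 0.20). Tnp2, transition protein 2, which acts before the protamines, was at -0.77, -2.74, 1.58 and -3.12 (5.12-fold higher). Tnp1, transition protein 1, was at 0.05, -1.05, 1.58 and -1.23 (1.53). In all 3 the order of the pools was 22-month AL, 15-month AL, then the CR pools, and both CR pools were close together. Gsg1, a germ cell associated gene, differed by 1.53, Tssk6, a spermatid kinase, by 1.38, Acrv1, an acrosomal protein, by 1.24, and Akap4, the anchoring protein of the sperm tail sheath, by 1.20. The sperm isoforms of glycolytic enzymes, Pgk2 and Ldhc, differed by 1.15 and 1.12, and Gapdhs by 0.98. Prm2 differed by 0.56, and the probes of Odf2 disagreed at -0.55 and 0.89. With normexp 6 of the 24 were at least 2-fold higher (median 0.83), and Tssk6, Acrv1, Akap4, Pgk2 and Ldhc were not. The labels name only ventricular tissue, and the source of these transcripts was not tested.

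Of the 15 largest rises, Prm1 and Tnp2 belonged to the spermatid list. Fhl4, a LIM-domain gene of the testis, was at -4.38 and -0.87 on the AL arrays, a difference of 3.51. Ppp3r2, a calcineurin subunit of the testis, differed by 2.74, Spata4 and Spata22, named for spermatogenesis, by 2.62 and 2.35, and Dnali1, an axonemal dynein chain, by 2.36. Spata4 was also higher at 22 months on CR (1.91), and Dnali1 differed there by 0.37. Fhl4, Ppp3r2 and Spata22 were not well above background in the 15-month CR pool. In the 22-month CR pool they were at -2.86, -0.60 and -2.27. Ppp3r2 was thus higher there than in the 22-month AL pool (-1.17). The largest rise was that of Spon2, spondin 2, a secreted matrix protein, at -3.72 and 0.13 on the AL arrays (14.5-fold, 3.85 ± 0.25). On the CR arrays Spon2 was not well above background at 15 months and was at -2.91 at 22 months. Efcab10 (3.36), Resp18 (3.04), Olfr267 (2.43), Cmtm2a (2.34) and Cst9 (2.32) completed the list together with Nppb and Timp1, described next. With normexp these differences were smaller but past 2-fold, among them Spon2 at 2.43, Fhl4 at 1.97, Efcab10 at 1.97, Resp18 at 1.52, Ppp3r2 at 1.48, Spata22 at 1.46, Olfr267 at 1.29, Cmtm2a at 1.25 and Dnali1 at 1.15.

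Hypertrophy markers were higher in part. Of 11 measured, 3 were at least 2-fold higher at 22 months (all genes 5.22%) and 1 lower (all genes 4.15%), with a median of 0.88 on AL (-0.0051 over the members above background on all 6 arrays) and -0.41 on CR. Nppb, which encodes brain natriuretic peptide, was at 0.12, 2.09, 2.87 and 2.29, a 6.75-fold difference on AL (2.76 ± 0.20) against 0.20 on CR. Myh7, the beta myosin heavy chain, was at 2.16, 3.46, 3.38 and 3.50, 2.33-fold higher on AL (1.22 ± 0.20) and 0.04 on CR. For Nppb and Myh7 it was the 15-month AL pool that lay at least 2-fold below each of the other 3, while the 22-month AL pool was nearer to both CR pools.

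Nppa, atrial natriuretic peptide, behaved otherwise, with 3.36, 3.70, 4.43 and 4.93. It was 2.11-fold higher at 22 months on AL (1.08 ± 0.06) and by 1.24 on CR, with both 22-month pools above both 15-month pools. Acta1, skeletal alpha-actin, was at 0.76, 2.60, 1.71 and 1.75, so that it was higher at 22 months on AL (0.95) and lower on CR (-0.85). Ankrd1, a stress-responsive protein of the sarcomere and nucleus, and Rcan1, an inhibitor of calcineurin, had the same form at 0.88 each on AL and -0.59 and -0.67 on CR. Fhl1, a LIM-domain protein of muscle, was the exception at 0.27, -2.61, -2.85 and -3.02, an 8.74-fold lower level at 22 months that again set the 15-month AL pool apart. Atrial genes as a list (8 measured) had a median of 0.00, with Nppa as the gene that passed 2-fold. Skeletal muscle genes (12 measured) had a median of 0.02 with none past 2-fold.

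**Figure D3:**
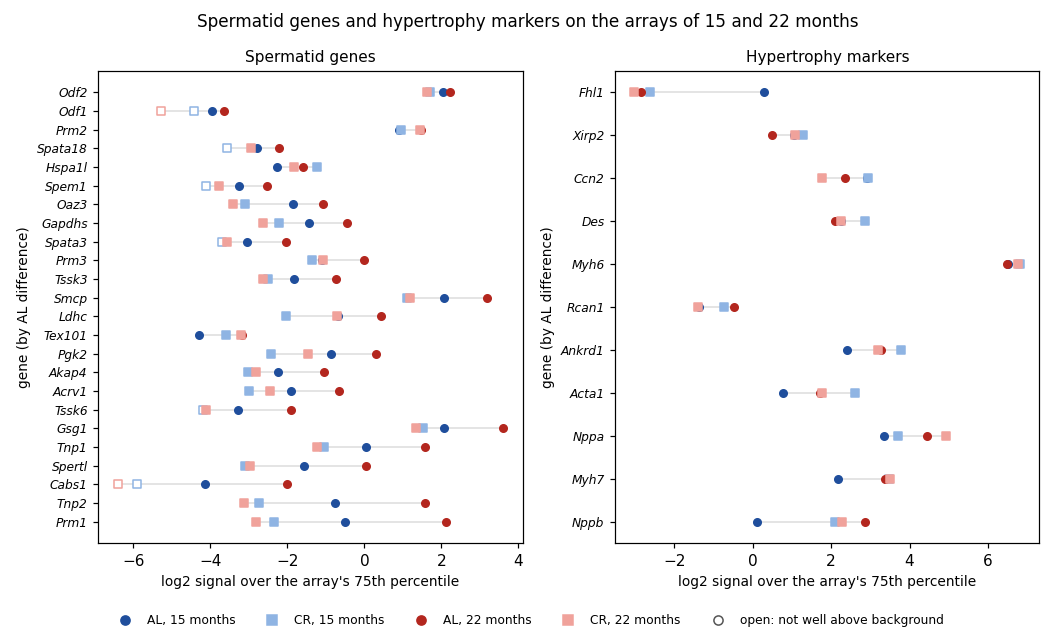
Log2 level relative to the 75th percentile of the array (x axis) of the measured spermatid genes (left) and hypertrophy markers (right) on the 4 arrays, with open symbols where the gene was not well above background. The 22-month AL pool (dark red) is the highest for most spermatid genes, at 2.12 for Prm1, while for Nppb and Myh7 the 15-month AL pool (dark blue) is the lowest, at 0.12 and 2.16.

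Immediate early genes were lower at 22 months on both diets. Of 19 measured, 12 were at least 2-fold lower on AL (all genes 4.15%) and none was higher, with a median of -1.72 on AL (-0.90 with normexp, where 8 were lower) and -1.27 on CR, and in 15 of the 19 (all genes 23.5%) both 22-month pools lay below both 15-month pools. Fos, a subunit of the AP-1 transcription factor, was at 2.44, -0.04, -2.11 and -2.29, or 23.4-fold lower at 22 months on AL (-4.55 ± 0.07). Egr1, a zinc finger transcription factor, was at 3.93, 3.35, 0.55 and -0.41, 10.4-fold lower. Nr4a1, an orphan nuclear receptor, was at 4.29, 4.31, 1.92 and 1.28, 5.17-fold lower. In Egr1 and Nr4a1 the ages were further apart than the diets.

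Btg2, an antiproliferative gene induced by growth factors and p53, was at 2.33, 2.0, -0.25 and -0.86 (5.97-fold lower on AL), and Dusp1, the phosphatase that switches off MAP kinases, at 3.65, 3.03, 1.63 and 1.71 (4.06-fold lower). Ccn1, a matricellular protein, was at 2.20, 1.37, -0.66 and -0.59 (7.28-fold lower). Atf3, a stress-induced repressor, was highest in the 15-month CR pool, at 0.05, 2.18, -1.85 and -2.33, so that its difference was -1.90 on AL and -4.51 on CR. Ier2 (-2.48), Zfp36, which destabilises AU-rich mRNAs (-2.01), Junb (-1.72), Fosb (-1.24) and Ier3 (-1.07) were also past 2-fold on AL, whereas Jun was at -0.62 on AL and -1.71 on CR. Fosl2 (0.76), Myc (0.26), Egr3 (0.24) and Egr2 (0.10) had differences above 0, and Nr4a3 was not well above background on either AL array. With normexp Ier2, Junb, Fosb and Ier3 were under 2-fold.

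The promoters of 15 of the 19 genes, each the window from 250 bases before to 50 bases after the annotated start in RefSeq (GRCm38.p6), were searched on both strands for the cyclic AMP response element TGACGTCA, a palindrome through which many immediate early genes are switched on. It was found in 2 of the 15, Btg2 and Dusp1, and in 2.03% of the windows of all 27025 genes. Both windows are shown because they hold the element, which is in capitals. The other windows searched lacked it, and whether the lower levels go with the element was not tested. Btg2 lies on the minus strand at chr1:134079106-134079405 and holds the element 166 bases before its start, and Dusp1 lies on the minus strand at chr17:26508423-26508722 and holds it 143 bases before its start.
Btg2: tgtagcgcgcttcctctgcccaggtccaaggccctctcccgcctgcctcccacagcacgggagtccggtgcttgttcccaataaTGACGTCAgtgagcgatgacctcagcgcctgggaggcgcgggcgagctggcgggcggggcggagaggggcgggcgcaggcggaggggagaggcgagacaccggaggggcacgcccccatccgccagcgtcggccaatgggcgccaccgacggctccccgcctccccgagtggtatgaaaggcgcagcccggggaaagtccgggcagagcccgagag
Dusp1: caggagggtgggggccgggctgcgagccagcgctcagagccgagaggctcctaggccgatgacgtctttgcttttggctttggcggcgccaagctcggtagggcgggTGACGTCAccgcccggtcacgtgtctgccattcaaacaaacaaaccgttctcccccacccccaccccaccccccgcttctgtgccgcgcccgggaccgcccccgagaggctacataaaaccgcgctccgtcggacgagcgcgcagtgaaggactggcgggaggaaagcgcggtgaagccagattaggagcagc
A match is a description of the letters and not evidence of binding, and no match says only that these letters are not in the window.

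Clock output genes were lower at 22 months too, chiefly on AL. Of 12 measured, 6 were at least 2-fold lower on AL (all genes 4.15%) and none was higher, with a median of -1.27 on AL and -0.64 on CR, and in 9 of the 12 (all genes 23.5%) both 22-month pools lay below both 15-month pools. Dbp, a PAR-domain transcription factor driven directly by the clock, was at 4.10, 2.83, 0.77 and 1.33, or 10.0-fold lower at 22 months on AL, its 2 probes at -3.87 and -2.77. Its relatives Hlf and Tef were at 2.02, 1.39, -0.22 and 0.97 and at 4.69, 4.94, 3.02 and 4.13, with differences of -2.24 and -1.68 on AL and of -0.43 and -0.82 on CR. In Hlf and Tef the 22-month AL pool was the lowest of the 4.

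Ciart, a circadian repressor, was at 1.22, 0.86, -1.09 and -1.15, with like differences on AL (-2.31) and CR (-2.01). Nr1d1 and Nr1d2, which encode the REV-ERB repressors, differed by -2.43 and -1.64 on AL, and Nr1d1 was under 2-fold with normexp and not well above background in the 22-month CR pool. Per1, Per2 and Per3 differed by -0.68, -0.90 and 0.63. On the positive arm (6 measured, median 0.59, or -0.26 over the members above background on all 6 arrays), Arntl, which encodes the BMAL1 activator, was at -2.28, -1.40, -0.58 and -0.91, 3.25-fold higher at 22 months on AL and by 0.49 on CR. Thus Arntl ran opposite to the output genes, with both 22-month pools above both 15-month pools. Clock (0.63), Cry1 (0.61) and Nfil3 (0.57) had smaller differences. Food was given at a set time of day, but the hour of death of each group was not given in the sources used here, and its part in these differences was not tested.

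The E-box CACGTG, the palindrome to which BMAL1 and CLOCK bind, was searched in the same way in the windows of 10 of the 12 clock output genes. It was present in 4 (Bhlhe41, Ciart, Per1 and Tef) and in 8.09% of the windows of all genes, and it shares no base with the element above in the windows printed, although the window of Dusp1 also holds it in lower case. Ciart is shown because its window holds 3 copies and its level at 22 months was lower on both diets. It lies on the minus strand at chr3:95882179-95882478, and the E-boxes, in capitals, start 116, 58 and 44 bases before its start.
Ciart: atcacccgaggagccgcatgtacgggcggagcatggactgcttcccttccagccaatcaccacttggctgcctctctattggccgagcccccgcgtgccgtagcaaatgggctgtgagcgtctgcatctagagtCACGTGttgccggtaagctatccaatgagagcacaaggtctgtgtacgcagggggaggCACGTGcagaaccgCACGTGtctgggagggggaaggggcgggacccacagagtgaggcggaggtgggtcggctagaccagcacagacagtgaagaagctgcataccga

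**Figure D4:**
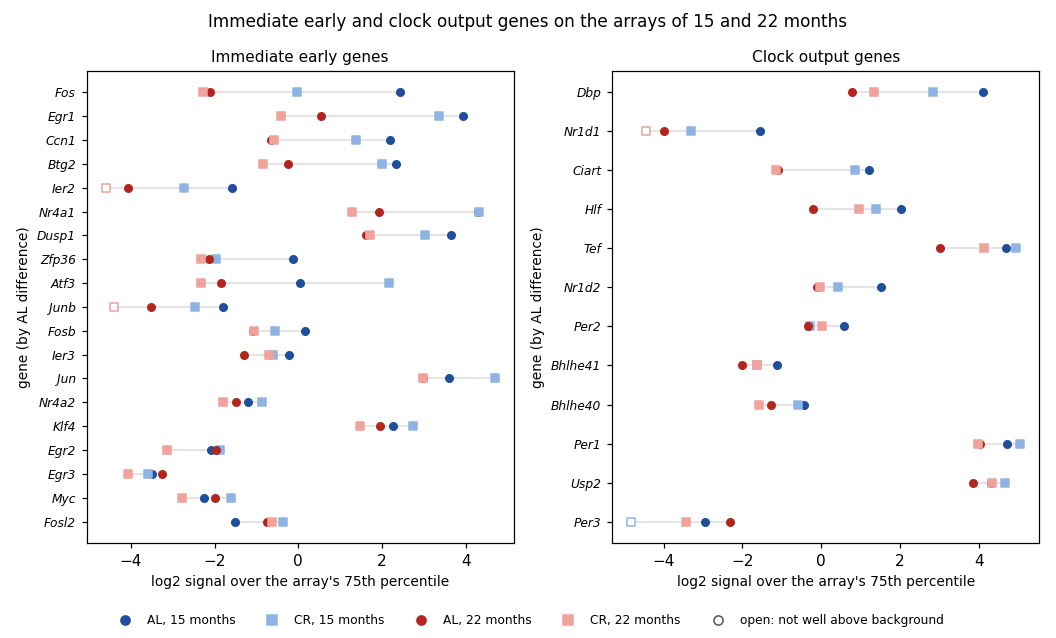
Log2 level relative to the 75th percentile of the array (x axis) of the measured immediate early genes (left) and clock output genes (right) on the 4 arrays, with open symbols where the gene was not well above background. Both 15-month pools (blue) stand to the right of both 22-month pools (red) for Egr1, Nr4a1 and Ciart, while for Tef the 22-month AL pool is the lowest at 3.02.

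Genes past 2-fold in the same direction on AL and CR included others outside these groups. Malat1, a nuclear long non-coding RNA, was at 2.40, 2.51, 0.14 and 0.28, differences of -2.26 on AL and -2.23 on CR. Thbs1, thrombospondin 1, which platelets store and many cells secrete, was at 3.30, -0.51, 0.36 and -3.02 (-2.95 on AL and -2.51 on CR), so that it was high in both AL pools within each age. Pdlim3, a Z-disc protein, differed by -1.84 and -1.97. Higher on both diets were Hspa2, a heat shock protein 70 family member of germ cells, at 1.56, 0.13, 3.61 and 2.21, Tdo2, tryptophan dioxygenase (1.87 on AL and 3.59 on CR), Rpl39l, a ribosomal protein paralog of the testis (2.01 and 3.24), Vpreb2 (2.0 and 3.24), Tex11 (1.95 and 2.77), Gimap7 (2.27 and 1.89), Acot3, a peroxisomal thioesterase (2.02 and 2.13), Pgbd1 (1.95 and 1.95) and Rsph4a, a radial spoke protein of cilia (2.0 and 1.86). Without the filter on dim probes the AL differences of Acot3 and Rsph4a were 0.47 and 1.07, which put Acot3 under 2-fold, and with normexp Gimap7 was under 2-fold.

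Without a gene symbol, and singled out after their values were seen, 5 Ensembl transcripts were lower at 22 months by more than 4 on the log2 scale on both diets, which no gene with a symbol was. The transcript ENSMUST00000099683 was at 7.41, 7.01, 2.20 and 1.04, differences of -5.20 on AL and -5.97 on CR, and ENSMUST00000099050 was at 6.99, 6.52, 2.17 and 1.17 (-4.82 and -5.35). In both, the 15-month pools were close together and far above the 22-month pools.

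Cell cycle genes were higher in the 22-month AL pool than in the 15-month AL pool. Of 34 measured, 10 were at least 2-fold higher (all genes 5.22%) and none lower, with a median of 0.68 on AL and -0.48 on CR, and with normexp 5 were higher. Aurka, the aurora A kinase of the spindle pole, was at -3.35, -1.99, -1.21 and -2.22, 4.40-fold higher on AL (2.14 ± 0.23). Cdk1, the kinase that drives entry into mitosis, differed by 1.56, but its 3 probes ranged from 0.60 to 2.32. Plk1, another mitotic kinase, differed by 1.5, Ndc80, a kinetochore protein, by 1.63 on AL and 2.52 on CR, Bub1, a spindle checkpoint kinase, by 1.24, and Ccnb1, cyclin B1, by 1.14.

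The 15-month CR pool was the highest of all in 7 of the 34 cell cycle genes by at least 2-fold (all genes 0.448%), and the 22-month AL pool in 3 (all genes 1.87%). Cdca3, a mitotic entry factor, was at -3.82, -1.07, -2.16 and -2.55, higher at 22 months on AL (1.66) and lower on CR (-1.48). Mki67, the proliferation antigen Ki-67, differed by 0.34 on AL and -1.22 on CR, and Prc1, a cytokinesis factor, by -0.02 and -2.86. The median level of the list was -1.91 on the 15-month AL array and -1.11 on the 22-month AL array, and Top2a, Cenpf, Aurkb and Kif11 were not well above background in either, while Kif4 (at least 2.41-fold) and Tpx2 (at least 1.37-fold) were so at 22 months only. With normexp Ccnb1 and Cdca3 were under 2-fold.

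Collagen and matrix genes showed no common shift on AL, with a median of -0.03 over 45 measured genes, 2 at least 2-fold higher (all genes 5.22%) and 6 lower (all genes 4.15%), against a median of -0.60 on CR. Col1a1 and Col3a1, the chains of the fibrillar collagens of scar, were at 4.01, 4.85, 4.72 and 3.30 and at 3.59, 4.67, 4.58 and 2.71. They were thus higher at 22 months on AL by 0.71 and by 1.0 (1.99-fold) and lower on CR by -1.55 and -1.96. Timp1, an inhibitor of matrix metalloproteinases, was at -0.40, -0.54, 2.02 and -0.54, 5.35-fold higher in the 22-month AL pool than at 15 months, while the other 3 pools lay close together. Thbs4, thrombospondin 4, differed by 1.04, and Serpinh1, the collagen chaperone, by 0.95.

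Mmp2, gelatinase A, was lower at 22 months on both diets, at -0.62, -0.45, -2.11 and -1.49 (-1.48 on AL). Tgfb1, the profibrotic growth factor, differed by -1.44 on AL and -0.74 on CR, Timp4, the cardiac metalloproteinase inhibitor, by -1.42, and Ltbp1, which holds latent TGF-beta in the matrix, by -1.08. Mmp9, gelatinase B, was not well above background on either AL array. With normexp Mmp2, Tgfb1, Ltbp1 and Thbs4 were under 2-fold.

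Stromal marker lists held some genes at least 2-fold lower, beside 4.15% of all genes, and in lists this short a count of 0 higher genes is near the 5.22% of all genes. Fibroblast genes (18 measured) had a median of -0.26 with 3 lower, endothelial genes (20 measured) -0.12 with 2 lower, smooth muscle and pericyte genes (16 measured) -0.32 with 4 lower, mesothelial genes (6 measured) -0.13 with 1 lower, and 0 genes of these lists were at least 2-fold higher. On CR the medians of fibroblast, endothelial and mural genes were -0.73, -0.63 and -0.74. Dpt, dermatopontin, differed by -1.94, Ddr2, a collagen receptor, by -1.23, and Vwf, von Willebrand factor, which both endothelium and platelets hold, by -2.08, at 4.35, 3.06, 2.27 and 2.17. The contractile proteins Cnn1, Myh11 and Tagln of smooth muscle differed by -1.48, -1.42 and -1.19, and the pericyte gene Rgs5 by -1.44. Of 14 Schwann cell genes 5 were lower, among them Kcna1 (-1.93), Cnp (-1.91), Cdh19 (-1.85) and S100b (-1.31). White adipocyte genes (14 measured) had a median of -0.14 with Cfd, adipsin (-2.02), and Scd1, stearoyl-CoA desaturase (-1.39), lower, and brown adipocyte genes (11 measured) a median of -0.16 with none past 2-fold. With normexp Dpt, Ddr2, Myh11, Cnp, Cdh19, S100b and Scd1 were under 2-fold.

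Genes of energy metabolism were mostly a little lower at 22 months. Counts in this paragraph and the next stand beside 4.15% of all genes at least 2-fold lower and 5.22% higher, with a median of 0.05. In fatty acid oxidation, the main fuel pathway of the adult heart, 24 of 25 genes lay below 0 with a median of -0.52 (on CR -0.40) and 3 were at least 2-fold lower. Ech1, an auxiliary enzyme for unsaturated fatty acids, was at 3.48, 3.50, 2.05 and 3.00 (2.69-fold lower on AL), so that the 22-month AL pool was the lowest. Acads and Acadm, the short- and medium-chain acyl-CoA dehydrogenases, differed by -1.10 and -1.01. The member above 0 was Cpt2 (0.09). In oxidative phosphorylation 46 of 55 genes lay below 0 with a median of -0.22 and none was past 2-fold, the range being -0.91 (Cyc1) to 0.19 (Ndufv2). Genes of the tricarboxylic acid cycle (21 measured) had a median of -0.41 with none past 2-fold, and glycolysis (25 measured) a median of -0.26 with Aldoc higher (1.23) and Pfkfb1 lower (-1.04). With normexp Acads, Aldoc and Pfkfb1 were under 2-fold.

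Fasting and PPAR response genes, which rise when fatty acids are released from fat, had a median of -0.67 over 16 genes on AL and of -1.02 on CR. Angptl4, an inhibitor of lipoprotein lipase, was at 2.02, 3.84, 3.21 and 2.40, higher at 22 months on AL (1.19) and lower on CR (-1.44). Pdk4, which turns off pyruvate dehydrogenase, was at 4.44, 6.22, 4.51 and 4.39, so that only the 15-month CR pool stood out and the AL difference was 0.07. Ppargc1a, a coactivator of mitochondrial biogenesis, differed by -0.91 on AL and was near the same level in the other 3 pools (1.55, 1.55, 0.64 and 1.57). Mitochondrial ribosomal protein genes (52 measured) had a median of -0.18 with Mrpl1 higher (1.16).

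The subunits of AMP-activated protein kinase, a sensor of low cellular energy, stayed within 2-fold. For the counts of the lists that follow, 4.15% of all genes were at least 2-fold lower and the median of all genes was 0.05. The catalytic subunits Prkaa1 and Prkaa2 differed by -0.60 each, the beta subunits Prkab1 and Prkab2 by 0.32 and -0.55, and the gamma subunits Prkag1, Prkag2 and Prkag3 by -0.71, 0.25 and 0.49. Of the FOXO transcription factors, which act in stress resistance and atrophy, Foxo1 differed by -0.18, Foxo3 by 0.70 (on CR 1.5) and Foxo4 by 0.12 (on CR -0.78). FOXO factors and targets as a list (27 measured) had a median of -0.23 with 3 lower, among them Txnip, an inhibitor of thioredoxin (-1.06). Autophagy genes, which serve the lysosomal breakdown of cell contents, lay below 0 in 29 of 35 with a median of -0.21, and 2 were at least 2-fold lower. Becn1, beclin 1, was at -0.14, -2.48, -1.31 and -2.22, that is higher on AL than on CR at both ages and lower at 22 months on AL (-1.16, under 2-fold with normexp). Bnip3l, a mitophagy receptor also used in red cell maturation, differed by -1.23 with its 4 probes between -1.37 and -0.93. Map1lc3b, which coats autophagosomes, and Sqstm1, the p62 cargo receptor, differed by -0.80 and -0.24.

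Markers of senescence (14 measured) had a median of -0.18. Here too 4.15% of all genes were at least 2-fold lower. Gdf15, a stress-induced cytokine, was at -2.35, -0.88, -0.83 and -0.82, higher at 22 months on AL (1.52) with the 15-month AL pool low. Igfbp3, a carrier of insulin-like growth factors, was at -0.46, -2.94, -3.01 and -1.98 (-2.55 on AL), with the 15-month AL pool high. Cdkn2a, the p16 locus, and Trp53, p53, differed by 0.53 and -0.17. Among inflammation markers (20 measured, median -0.28, 3 lower), the chemokines Cxcl1, Ccl12 and Cxcl12 differed by -2.26, -1.46 and -1.10, while Ccl2, Il1b and Il10 differed by 0.61, 0.91 and 0.34, and Il6 and Tnf were not well above background. With normexp Ccl12 and Cxcl12 were under 2-fold.

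Antigen presentation genes had a median of -0.58 over 17 measured, with 15 below 0 and 2 at least 2-fold lower, and on CR the median was -0.64. Beside the counts of this paragraph, 4.15% of all genes were at least 2-fold lower and 5.22% higher, with a median of 0.05. B2m, the light chain of MHC class I, was at 5.72, 4.74, 3.92 and 3.69, 3.47-fold lower on AL with both 22-month pools below both 15-month pools, and Psmb8, an immunoproteasome subunit, differed by -1.05. Complement genes (18 measured) had a median of -0.46 with 5 lower, among them Cfd, Serping1 (-1.33), C1s1 (-1.30) and C1ra (-1.11). Interferon response genes (21 measured) had a median of -0.17, with Ifit2 (-1.85) and Rsad2 (-1.09) lower and Oas2 (1.05) higher. With normexp Psmb8, C1ra, Ifit2, Rsad2 and Oas2 were under 2-fold.

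Antioxidant genes under the factor NRF2 (22 measured, median -0.40, 4 lower) included Gclm, a subunit of the rate-limiting enzyme of glutathione synthesis, at 0.29, -1.94, -1.87 and -1.82, and Gpx1, glutathione peroxidase 1, at 2.55, 2.16, 0.60 and 1.20. Gclm was thus high in the 15-month AL pool alone, while Gpx1 was lower at 22 months on both diets. Heat shock genes (15 measured) had a median of 0.29 with 2 higher, Hspa1a, the inducible heat shock protein 70 (1.82 on AL and 3.23 on CR), and Hsp90aa1 (1.02). Unfolded protein response genes (20 measured) had a median of 0.21 with Atf6 lower (-1.44), and glucocorticoid response genes (15 measured) a median of -0.34 with Angptl4 higher (1.19) and 2 lower, Sult1a1, a sulfotransferase (-1.04), and Sgk1, a salt-regulating kinase, on AL (-1.52) and CR (-2.10). Cytosolic ribosomal protein genes (40 measured, median -0.15) and proteasome genes (31 measured, median -0.09) had none past 2-fold. Cardiac ion channels and exchangers (28 measured) had a median of -0.32 with Kcnd2 (-1.26) and Kcnj3 (-1.15), potassium channel subunits, lower. Adrenergic and calcium signalling genes (26 measured) had a median of -0.17 with Adra1a, the alpha 1A adrenoceptor, lower (-1.29), and Pln, phospholamban, and Ryr2, the calcium release channel, differed by -0.95 and -0.68. With normexp Kcnd2 (-0.30), Kcnj3 (-0.28), Adra1a (-0.19), Atf6 (-0.24) and Hsp90aa1 (0.99) were under 2-fold.

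**Figure D5:**
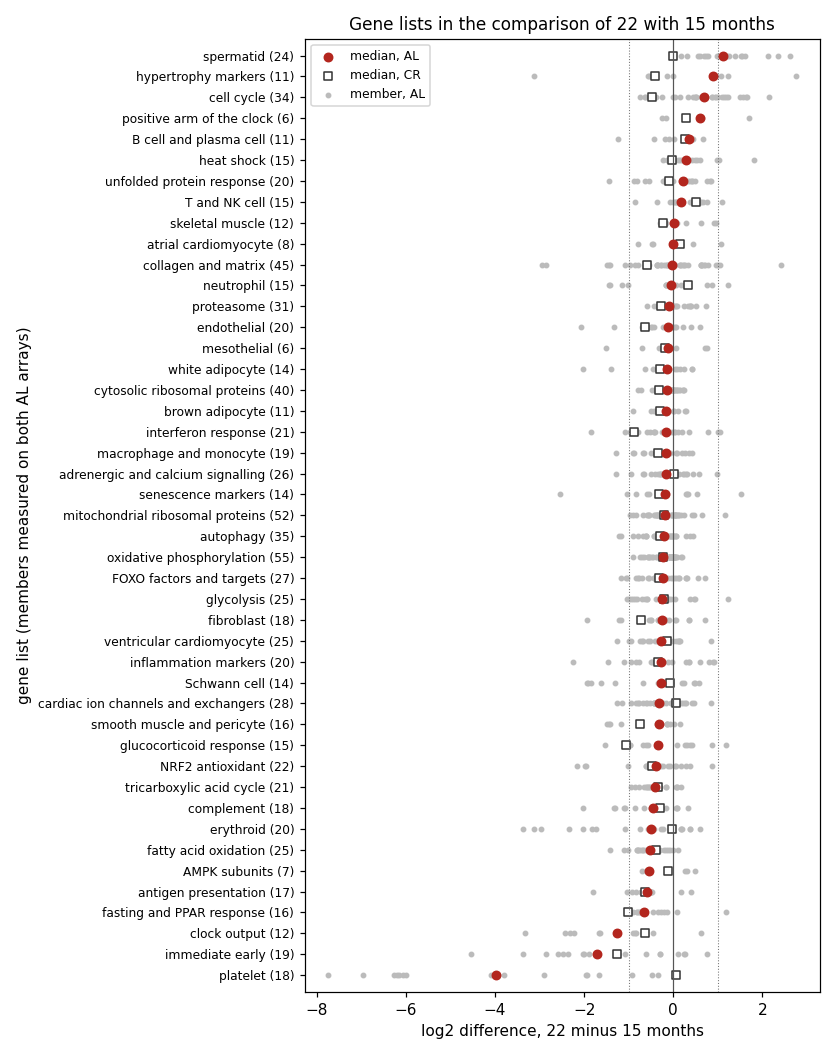
Median log2 difference between 22 and 15 months of each gene list on AL (red circles) and on CR (open squares), with each member on AL as a grey point and the number of members measured on AL in parentheses. The lists run from spermatid genes, with a median of 1.11 on AL, to platelet genes, with a median of -3.98 on AL and 0.05 on CR.

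Genes above background in 1 of the AL pools only came in unequal numbers, 411 at 22 months and 2082 at 15 months, beside 22983 measured in both. The 15-month AL array was also the brighter, with 77.1% of all probes well above background against 71.3%. Its 75th percentile signal was 380.6 against 298.9, and the part of brightness in these numbers was not tested. In 228 of the 411 and 268 of the 2082 genes the bound was at least 2-fold. At 22 months the largest bounds were at least 10.7-fold for Tas2r117, 7.23-fold for Podxl2, 7.21-fold for Olfr1445, 6.64-fold for Gm6213, 6.55-fold for Ccdc81, 6.33-fold for Adam1b, 5.85-fold for P2ry4 and 5.81-fold for Frrs1. At 15 months, beside the platelet genes Rgs18, Itga2b and Gp1ba, they were at least 61.2-fold for Stx11, a syntaxin of platelet and lymphocyte granule release, 52.6-fold for Lrrn3, 47.4-fold for Nfe2, a megakaryocyte and erythroid transcription factor, 39.5-fold for Slamf1 and 38.9-fold for Cd226, a receptor of lymphocytes and platelets.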

How the data were processed

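RNA of 6 pools of mouse ventricle, 1 per age and diet, was hybridised to 1-colour Agilent arrays, 1 array a pool. The authors scanned the arrays with Agilent Feature Extraction (version 11.0.1.1, per the submitters' processing notes), and the deposited scanner tables hold spot intensity, already background-subtracted. The deposited log2 values, for which no source names the normalization, served as an alternative. No column was without a sample (0).

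Control and outlier-flagged spots were left out (159 flagged on the 15-month AL array, 92 on the 22-month AL array, 0 saturated). Log2 intensities were scaled to the 75th percentile of each array, and a probe was kept if at least 50% of its spots were well above background on both AL arrays. Probes of a gene were averaged. 3930 genes had several probes, and in 572 of these the lowest and highest probe differences were at least 2-fold apart. Of 28684 probes with a RefSeq accession, 27234 (94.9%) were given a current symbol through GRCm38.p6, used for names. Errors are those of the scanner software for the spots. Replicate spots of a probe had an SD of 0.12 log2 on the 15-month AL array and 0.139 on the 22-month AL array. The number of arrays limits the precision.

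A gene counted as changed at 2-fold or more, and list medians under 0.2 in size were given no direction. For a gene above background on 1 AL array, the bound was its signal over that on the dim array, taken as the probe's own or as the lowest signal well above background there, whichever was larger. A few genes counted in the lists are not reported here by name. Members and lists were chosen with earlier results of these data known. Named were the 15 largest rises and falls at least 2-fold under percentile scaling, quantile normalization and the deposited values, the 10 of each direction shared with CR, the 8 largest bounds each way, the study's genes and the leading list members. Simulated arrays, with only the noise of replicate spots and with planted differences past 2-fold, were run through the same steps. There 99.0% of 200 changed genes were recovered among 25082, with 0 false calls. The simulation held no spread between animals, pools or slides, so it checks the steps and cannot give the share of false calls in the real comparison. Alternatives were other scalings, background correction with normexp (on median signals, as no mean signal column is held, with an offset of 50), filters, probe rules and folds. Python 3.11.15, numpy 2.4.6, pandas 2.3.3, scipy 1.17.1, R 4.3.3 and limma 3.58.1 were used.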

Additional observations from a re-analysis of the deposited data

Results flagged for a closer look

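Over all genes, 11 that were at least 2-fold higher at 22 months on AL were at least 2-fold lower on CR, and 15 ran the other way. Of the genes named here 5 were among them, and the difference between the diets was not tested, since each pool was measured once. Angptl4 was higher at 22 months on AL (1.19) and lower on CR (-1.44), and Cdca3 had the same form (1.66 and -1.48). Cfd was lower on AL (-2.02) and higher on CR (1.33), as were S100a8 (-1.43 and 1.85) and S100a9 (-1.02 and 1.67). Angptl4 and Cdca3 were highest in the 15-month CR pool, and Cfd was lowest there, as were S100a8 and S100a9. With normexp background correction the AL differences of Cdca3, S100a8 and S100a9 were under 2-fold.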

How the results depend on the processing

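No paired analysis was possible because each group had 1 array. Of 46 alternative values of the counts, the median of all genes and the correlation with CR, 35 moved by less than the set margin and 11 moved further. The counts of genes higher and lower at 22 months were 479 and 339 with normexp background correction, which added an offset of 50 to every signal. Median background-subtracted signals were 71.8 and 55.4 on the 15-month and 22-month AL arrays. A constant of this size draws the log2 differences of dim probes toward 0, and its part in the lower counts was not tested. Without the filter on dim probes, which adds genes, the counts were 1818 and 2346, and the correlation with CR fell to 0.386. With probes above background on all 6 arrays, which leaves fewer genes, they were 485 and 265. At a fold of 1.5 they were 3752 and 2965, and at a fold of 3 they were 221 and 242. Centring on the median of all genes, which evened the counts, gave 1077 and 1079. The median of all genes was 0.13 with normexp and 0.13 with the filter on all 6 arrays, and changes are relative to it. Of 450 alternative list medians 440 kept their place, 5 moved and 5 reversed. The moved ones were platelet genes (-2.89) and immediate early genes (-0.90) with normexp and, with the filter on all 6 arrays, platelet (-1.94), mesothelial (0.70) and senescence genes (0.40). The reversed ones were B cell and plasma cell genes without a filter (-0.11) and, with the filter on all 6 arrays, Schwann cell genes (0.22), hypertrophy markers (-0.0051), AMPK subunits (0.29) and the positive arm of the clock (-0.26). Of 1752 alternative values of named genes, 1554 kept their place, 198 moved and 0 reversed. Of the 170 named genes past 2-fold, 60 were under 2-fold with normexp, 14 with the deposited values, 5 with median scaling, 5 with the brightest probe, 3 when centred, 2 without the filter on dim probes, 2 with the filter on all 6 arrays and 1 with quantile normalization.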
